A study of Caenorhabditis elegans with 10 samples.

Results

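The C-type lectin genes of Caenorhabditis elegans were taken as the protein-coding genes whose name in the deposited table is clec followed by a number. There were 255 of them among 20389 protein-coding genes, and the 108 with at least 1 CPM (read counts adjusted for library depth) in 2 or more of the 10 libraries are described here. The libraries hold polyadenylated RNA of embryos collected 3 hours after egg preparation, in 5 groups of 2 libraries. The preconditioned group is N2, the wild-type strain, from parents grown on 300 mM NaCl with embryos on 500 mM NaCl. In the other 4 groups the parents grew on 50 mM NaCl, with lin-45(n2018) embryos on 500 mM, N2 embryos on 500 mM, lin-45(n2018) embryos on 50 mM and N2 embryos on 50 mM. lin-45 encodes the RAF kinase of the RAS and ERK pathway, and n2018 is the only mutant allele in the series. The labels do not say whether the libraries of a group came from separate cultures, so the p-values cover only how far these libraries differ, which may be technical.

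C-type lectins carry a protein fold first known from animal proteins that bind sugars with the help of calcium. Many of the worm's C-type lectin proteins carry a secretion signal, a large number of the genes are expressed in the intestine, and many change in level when worms meet pathogenic bacteria. For most members neither a bound sugar nor a function is known. The genes lie in part in clusters of neighbours of similar sequence, which bears on how reads are shared among them.

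Depth was 22138066 to 34585484 rounded counts per library, and the members together held 0.164% to 0.382% of them. Of the 255 members, 108 (42.4%) passed the level above, against 71.1% of all protein-coding genes. Among the other 147, 18 had no count in any library, and 8 reached 1 CPM in a single library. The second highest library, which decides whether a gene passed, stood at 1.04 CPM for clec-142, 1.02 for clec-55 and 1.01 for clec-31, just inside, and at 0.988 for clec-68, 0.983 for clec-238 and 0.977 for clec-32, just outside. By chromosome, 35 of 58 members passed on IV, 38 of 92 on V, 18 of 51 on II, 9 of 36 on I, 5 of 15 on III and 3 of 3 on X. A gene could pass through the groups where it is high alone, so the counts below describe the members that passed and support nothing further. The lin-45 transcript stood at 96.7 and 104.1 CPM in lin-45 embryos on 500 mM and at 118 and 119.1 CPM on 50 mM, against 81.5 to 94.97 CPM in the 6 N2 libraries, so its level does not check the genotype label. RNAs of adult yolk and sperm, 10 genes of which 3 passed, summed to 4.06 to 10.8 CPM in each library. Replicates of the preconditioned group were the least alike over the members, with a root mean square log2 difference of 0.537, against 0.253 to 0.384 in the other groups.

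Levels between genes were compared per transcript length, as FPKM (fragments scaled by transcript length and library size) from the deposited table. The median member had a mean of 5.84 FPKM over the 10 libraries, the lowest 0.195 and the highest 594. clec-266 had the highest mean, 594 FPKM, followed by clec-63 with 479.8, clec-50 with 113, clec-17 with 97.8, clec-209 with 89.1, clec-196 with 62.0, clec-65 with 60.1 and clec-72 with 53.97. The order changed with salt. clec-266 averaged 759 FPKM in preconditioned embryos, 1042 in lin-45 on 500 mM, 1116 in N2 on 500 mM, 18.7 in lin-45 on 50 mM and 33.8 in N2 on 50 mM. clec-63 averaged 220.2, 352, 218, 985 and 624 FPKM in the same 5 groups. clec-63 was thus the more abundant of the pair in the 2 groups on 50 mM and clec-266 in the 3 groups on 500 mM.

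The family as a whole was lower on high salt. The summed level of all 255 members was 1728 and 1621 CPM in preconditioned embryos, 2277 and 2167 in lin-45 on 500 mM and 1941 and 2039 in N2 on 500 mM, against 3989 and 3985 in lin-45 on 50 mM and 2937 and 3222 in N2 on 50 mM. All 6 libraries on 500 mM lay under all 4 on 50 mM. A single gene made up much of what was left on high salt, since clec-266 held 24.7% to 45% of the family's CPM on 500 mM and 0.214% to 0.989% on 50 mM. Without clec-266 the sums were 1098 and 1221 CPM in preconditioned embryos, 1464 and 1466 in lin-45 on 500 mM and 1277 and 1122 in N2 on 500 mM, against 3980 and 3966 in lin-45 on 50 mM and 2908 and 3205 in N2 on 50 mM. Between 67 and 70 members had at least 1 CPM in a library on 500 mM, against 97 to 99 on 50 mM. In N2, 28 members reached 1 CPM in both libraries on 50 mM and in neither on 500 mM, and 1 did the reverse. The same detection counts over all genes are not given, so these numbers describe the members only. In bulk RNA, fewer cells of a type and less RNA per cell cannot be told apart.

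**Figure D1:**
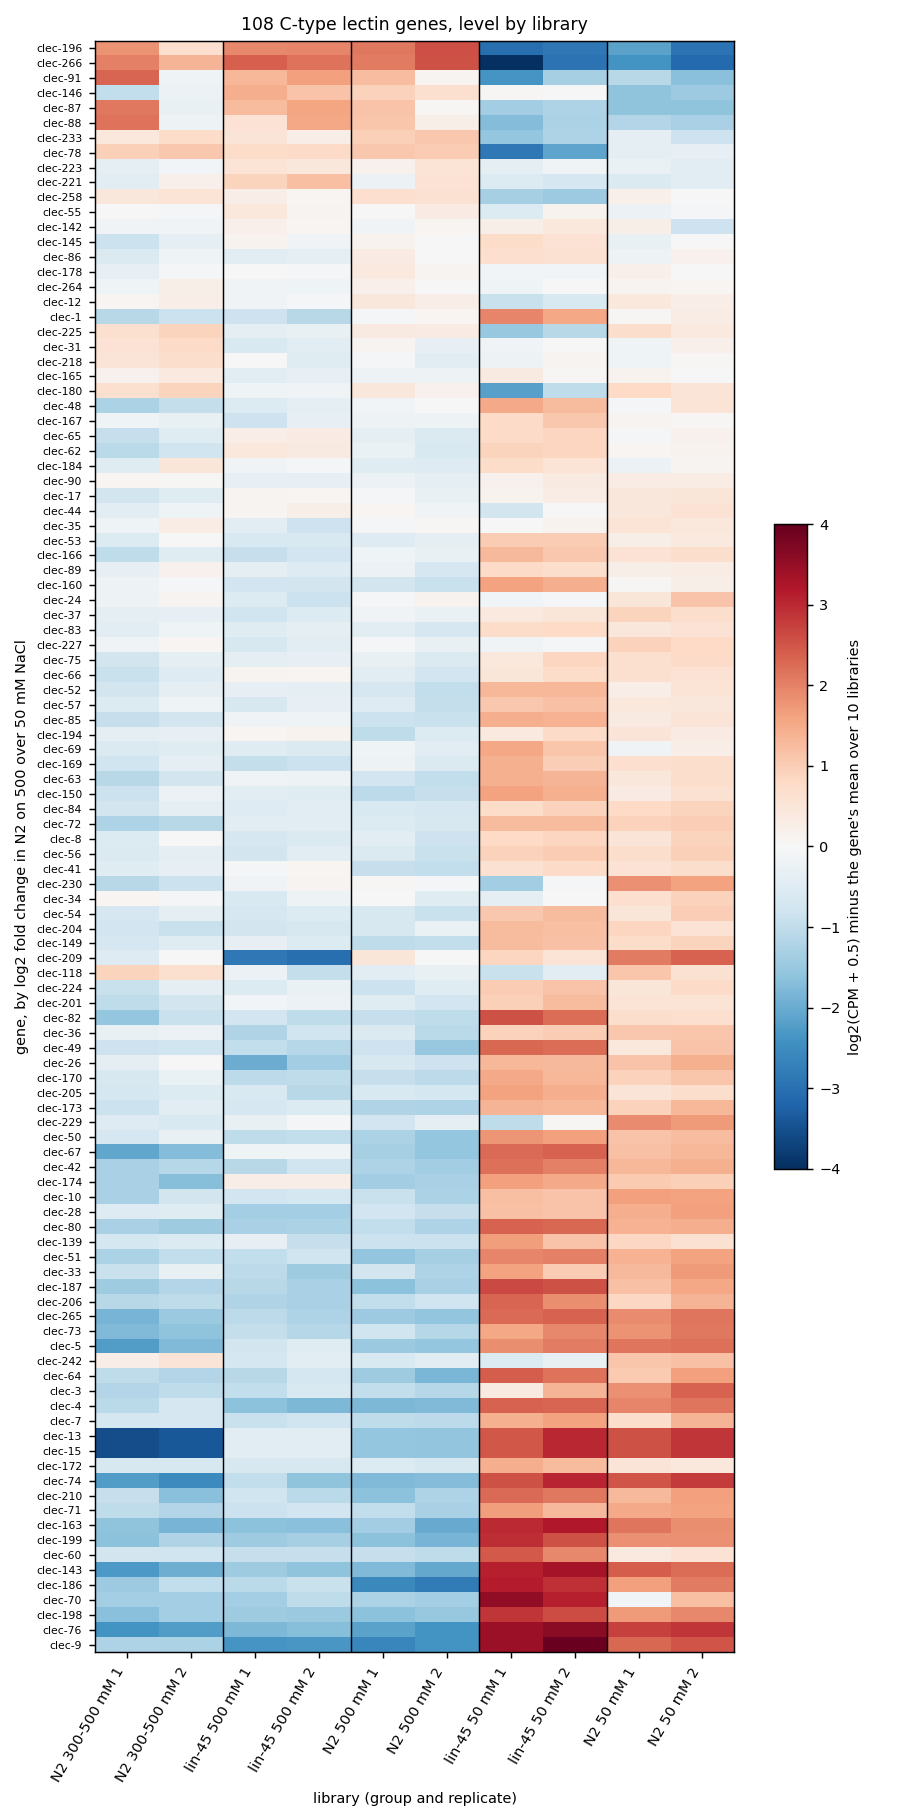
Level of each of the 108 members (down the page, ordered by the log2 fold change in N2 on 500 over 50 mM NaCl) in each of the 10 libraries (across), coloured by log2(CPM + 0.5) minus the gene's mean over the libraries, clipped at 4. Most genes are blue in the 6 libraries on 500 mM and red in the 4 on 50 mM, and the reverse holds for a few at the top such as clec-196 and clec-266.

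High against low salt in N2 asks what osmotic stress does to wild-type embryos. Of the 108 members, 78 fell and 10 rose (edgeR quasi-likelihood test, adjusted p under 0.05 over all 14802 genes tested), and 20 did not pass. Over all genes tested, 32.1% fell and 31.4% rose, 63.5% in either direction. The median log2 fold change was -1.59 over the members and -0.01 over all genes tested, and 71 members fell and 9 rose at least 2-fold. With 2 other library scalings the counts called were again 78 and 10. Leaving out N2 50 mM replicate 2 left 5 members higher. Intestine markers moved as well: of the 10 intestine markers that passed the level, 6 fell and 3 rose, and the 12 listed summed to 3074 and 2682 CPM in N2 on 500 mM, against 5058 and 5564 in N2 on 50 mM, with none of them at 0 in all libraries. elt-2, 1 of the 12 listed intestine markers, stood at 21.0 and 23.4 CPM in N2 on 500 mM, against 22.3 and 23.0 on 50 mM. A single marker does not stand for the list. Markers of other tissues moved too. Of 8 neuron markers 6 fell and 1 rose, and they summed to 1206 and 1150 CPM in N2 on 500 mM, against 1667 and 1704 in N2 on 50 mM. Of 5 markers of the excretory cell and glia 3 fell and 1 rose, and of 7 pharynx markers 3 fell and 2 rose. Of 8 epidermis markers 4 rose and none fell, of 6 body wall muscle markers 1 fell and 1 rose, and of 6 germ line markers 1 rose. The part of these lists in the fall of the C-type lectins was not tested.

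**Figure D2:**
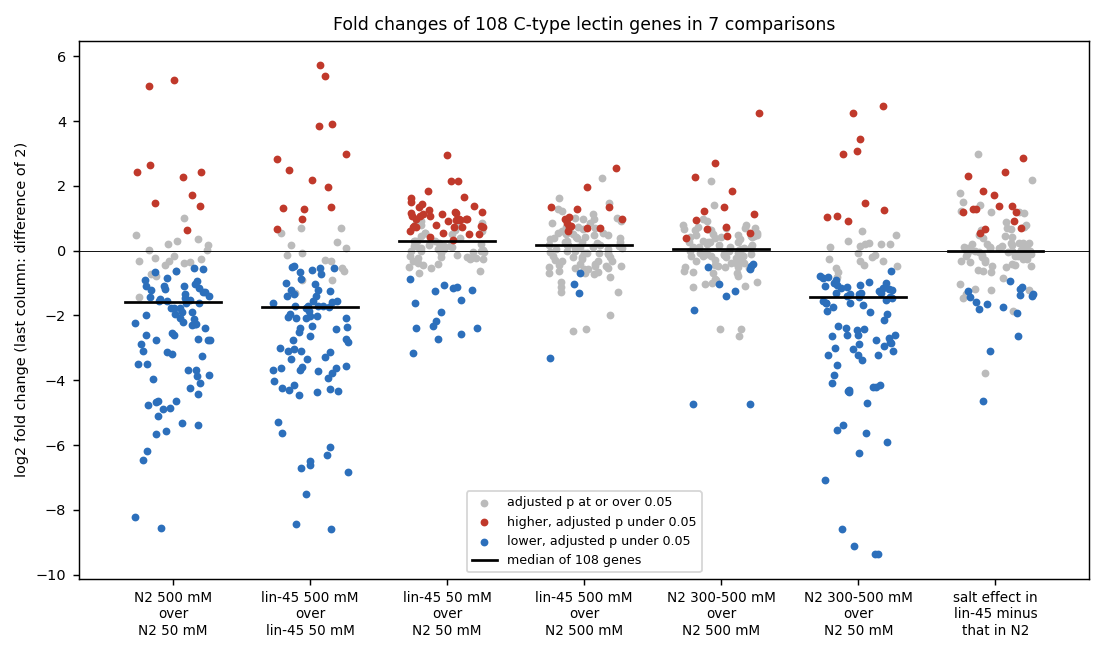
Log2 fold change (vertical) of each of the 108 members in the 6 comparisons of groups, and in the last column the difference of the salt effect between strains. Points are genes, red or blue where the adjusted p was under 0.05, and black lines are medians. The columns of 500 over 50 mM centre on -1.59 (N2), -1.75 (lin-45) and -1.43 (preconditioned), and those between groups on the same salt lie near 0.

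The members with the largest changes were named only where the libraries of the 2 groups did not overlap, so that trait is no further support. clec-266 and clec-196 rose most. clec-266 (chromosome X at 6617403 to 6622855 on ce10, identifier C25B8.4) had 664 and 917 CPM in N2 on 500 mM, against 29.0 and 17.4 on 50 mM. It had 813 and 701 CPM in lin-45 on 500 mM, against 8.54 and 19.7 on 50 mM, and 630.4 and 400.1 CPM in preconditioned embryos. All 6 libraries on 500 mM lay far above all 4 on 50 mM. The rise was 5.10 ± 0.38 on the log2 scale in N2 (SE, adjusted p = 2.01e-05) and 5.73 ± 0.39 in lin-45 (adjusted p = 9.93e-06). The gene overlaps kqt-1, a potassium channel gene on the opposite strand, whose own log2 fold change in N2 was 0.56 (adjusted p = 0.00122). The deposited counts come with no statement on strand.

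clec-196 (chromosome IV at 17276928 to 17277710) had 50.9 and 70.7 CPM in N2 on 500 mM, against 2.20 and 1.03 on 50 mM. It had 44.5 and 45.8 CPM in lin-45 on 500 mM, against 0.970 and 1.13 on 50 mM, and the preconditioned libraries had 41.02 and 18.7. The 500 mM libraries again lay above all those on 50 mM, and preconditioned replicate 1 was more than 2 times replicate 2. The fit gave log2 fold change 5.29 ± 0.46 SE, adjusted p = 1.98e-05 in N2 and log2 fold change 5.41 ± 0.52 SE, adjusted p = 1.81e-05 in lin-45. For neither gene did the salt effect differ between the strains past the threshold (difference 0.63 ± 0.54, adjusted p = 0.414, for clec-266 and 0.12 ± 0.69, adjusted p = 0.917, for clec-196). clec-233 and clec-78 also rose in both strains. clec-233 had 13.4 and 14.8 CPM in N2 on 500 mM, against 5.02 and 3.56 on 50 mM (log2 fold change 1.73 ± 0.21 SE, adjusted p = 0.000159). clec-78 had 12.3 and 11.5 CPM in N2 on 500 mM, against 4.19 and 4.31 on 50 mM (log2 fold change 1.48 ± 0.23 SE, adjusted p = 0.000536). That neither pair of groups overlapped was a condition for naming these members.

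clec-146 (chromosome II at 13590488 to 13593727) rose with salt and differed again with the parents' salt. It had 6.41 and 11.2 CPM in preconditioned embryos, 37.1 and 29.6 in lin-45 on 500 mM, 25.4 and 21.0 in N2 on 500 mM, 13.6 and 13.5 in lin-45 on 50 mM and 4.01 and 4.53 in N2 on 50 mM. Both preconditioned libraries lay under both N2 libraries on 500 mM and above both on 50 mM. The log2 fold changes were 2.44 ± 0.25 in N2 on 500 over 50 mM (adjusted p = 6.35e-05), 1.30 ± 0.23 in lin-45 on 500 over 50 mM (adjusted p = 0.00115) and -1.40 ± 0.24 in preconditioned over N2 on 500 mM (adjusted p = 0.00478). The first and the last of these share the N2 500 mM libraries.

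In N2 on 500 mM clec-87, clec-88 and clec-91 rose, and so did 5 of 12 listed maternal RNAs. clec-87 had 71.9 and 13.3 CPM in preconditioned embryos, 39.9 and 49.8 in lin-45 on 500 mM, 36.6 and 17.1 in N2 on 500 mM, 5.91 and 6.60 in lin-45 on 50 mM and 5.07 and 5.03 in N2 on 50 mM. clec-88 had 22.4 and 3.89, 7.13 and 14.4, 10.5 and 5.44, 1.02 and 1.61 and 1.76 and 1.56 CPM in the same groups. clec-91 had 19.3 and 3.05, 9.41 and 11.8, 8.91 and 3.83, 0.277 and 1.10 and 1.37 and 0.750 CPM. In each of the 3 genes preconditioned replicate 1 was the highest library, replicate 2 was several times lower, and N2 500 mM replicate 1 was above replicate 2. In N2 on 500 over 50 mM the log2 fold changes were 2.42 ± 0.69 for clec-87, 2.28 ± 0.80 for clec-88 and 2.64 ± 0.92 for clec-91 (SE, adjusted p = 0.0151, 0.0328 and 0.0306). Each of these N2 calls was lost without either N2 50 mM library or without N2 500 mM replicate 1 (highest adjusted p 0.0949, 0.159 and 0.167). The 12 maternal RNAs listed, transcripts such as mex-5 and pos-1 that the mother loads into the egg and that decline in early embryos, summed to 251 and 115 CPM in preconditioned embryos, 136 and 173 in lin-45 on 500 mM, 139 and 107 in N2 on 500 mM, 85.04 and 85.1 in lin-45 on 50 mM and 80.6 and 79.6 in N2 on 50 mM. All 12 passed the level, 5 rose in N2 on 500 mM and none fell. The split between replicates differed among maternal RNAs. In preconditioned embryos pos-1 stood at 41.2 and 6.79 CPM, mex-5 at 31.2 and 7.99 and pie-1 at 4.14 and 2.49. In N2 on 500 mM pos-1 stood at 18.9 and 8.51 CPM, mex-5 at 11.3 and 8.09 and pie-1 at 2.89 and 2.23. The part of maternal RNA in the rise of the 3 genes was not tested.

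Among members with at least 10 CPM on 50 mM, the deepest falls in N2 belonged to clec-9, clec-76, clec-186, clec-143, clec-74 and the pair clec-13 and clec-15. clec-9 (chromosome V at 16705059 to 16706625) had 0 and 0.0843 CPM in N2 on 500 mM (0 and 2 counts), against 14.4 and 16.8 CPM on 50 mM (326 and 537 counts). With so few counts the ratio of summed counts, scaled for depth, was 0.00236 (95% interval 0.000285 to 0.00854), an interval that covers counting error only. In lin-45 it had 0.0951 and 0.101 CPM on 500 mM, against 32.6 and 46.3 on 50 mM (log2 fold change -8.59 ± 0.63 SE, adjusted p = 4.88e-07). clec-9 was thus near the floor on 500 mM in both strains. clec-76 had 0.0998 and 0 CPM in N2 on 500 mM, against 17.1 and 18.7 on 50 mM, a count ratio of 0.00310 (95% interval 0.000637 to 0.00907). clec-186 had 0.466 and 0.337 CPM in N2 on 500 mM, against 17.5 and 23.9 on 50 mM (log2 fold change -5.65 ± 0.36 SE, adjusted p = 1.47e-06). clec-143 had 0.366 and 0.211 CPM in N2 on 500 mM, against 15.2 and 13.3 on 50 mM (log2 fold change -5.57 ± 0.36 SE, adjusted p = 1.45e-06). For these 4 genes no library of N2 on 500 mM came near one on 50 mM. clec-74 had 1.73 and 1.77 CPM in N2 on 500 mM, against 42.4 and 52.6 on 50 mM (log2 fold change -4.76 ± 0.29 SE, adjusted p = 3.29e-06).

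clec-13 (chromosome I at 12635161 to 12636532) and clec-15 (chromosome I at 12631174 to 12632545) carried identical counts in every library, 4728.5 estimated counts each in all, some of them not whole. The deposited counts thus do not tell these neighbours apart, and the pair is 1 measurement. Each had 0.0267 and 0.0879 CPM in preconditioned embryos, 4.12 and 4.02 in lin-45 on 500 mM, 1.63 and 1.56 in N2 on 500 mM, 33.98 and 49.4 in lin-45 on 50 mM and 35.4 and 44.1 in N2 on 50 mM. No group on 500 mM overlapped a group on 50 mM, and the preconditioned libraries were the lowest of all. The log2 fold change was -4.64 ± 0.24 in N2 on 500 over 50 mM (adjusted p = 1.41e-06), -3.36 ± 0.20 in lin-45 on 500 over 50 mM (adjusted p = 2.89e-06) and -4.73 ± 0.76 in preconditioned over N2 on 500 mM (adjusted p = 0.000748). The preconditioned values rest on 1 and 3 rounded counts for each gene. A further pair with identical counts, clec-248 and clec-249, held 22.5 counts each in all and did not pass the level, and 19 other members shared their values with another gene at 8 counts or fewer.

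clec-63 (chromosome II at 12895566 to 12897393), the most abundant member on low salt, fell less deeply. It had 227 and 295 CPM in preconditioned embryos, 452 and 426 in lin-45 on 500 mM, 292 and 253 in N2 on 500 mM, 1334 and 1261 in lin-45 on 50 mM and 685 and 813 in N2 on 50 mM. All 6 libraries on 500 mM lay under the 4 on 50 mM. The fit gave log2 fold change -1.46 ± 0.14 SE, adjusted p = 3.55e-05 in N2 and log2 fold change -1.56 ± 0.14 SE, adjusted p = 1.9e-05 in lin-45. Its salt effects differed between strains by -0.11 ± 0.19 (adjusted p = 0.72), which did not pass.

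Among the 15 members that were listed for a known role and passed the level, 10 fell in N2, 3 rose and 2 did not pass. In either direction 86.7% of the 15 were called, against 81.5% of the 108 members and 63.5% of all genes tested. Of the 108, 72.2% fell, so the falls below are not particular to this list. clec-38 and clec-39 were also listed but did not pass the level. Those that rose were clec-87, clec-88 and clec-91, given above. clec-1 did not pass (-0.17 ± 0.18 on the log2 scale, adjusted p = 0.432), nor did clec-86, which averaged 3.48 CPM in N2 on 500 mM, against 3.03 on 50 mM (log2 fold change 0.19 ± 0.24 SE, adjusted p = 0.494). Immunity-linked members were among those that fell. CLEC-41 and CLEC-42 act against Bacillus thuringiensis. clec-42 had 12.2 and 10.9 CPM in N2 on 500 mM, against 75.1 and 80.3 on 50 mM (log2 fold change -2.75 ± 0.13 SE, adjusted p = 1.24e-06). clec-41 had 12.6 and 12.1 CPM in N2 on 500 mM, against 36.5 and 39.9 on 50 mM (log2 fold change -1.62 ± 0.11 SE, adjusted p = 5.2e-06). In both genes the groups were far apart relative to their replicates. clec-67 and clec-85 are known as targets of the p38 kinase PMK-1 in infected adults. clec-67 had 13.2 and 11.2 CPM in N2 on 500 mM, against 76.6 and 85.4 on 50 mM (log2 fold change -2.73 ± 0.12 SE, adjusted p = 1.08e-06). clec-85 had 16.9 and 16.3 CPM in N2 on 500 mM, against 39.7 and 43.7 on 50 mM (log2 fold change -1.33 ± 0.10 SE, adjusted p = 7.61e-06). clec-60, which rises in bacterial infection of adults, had 0.0333 and 0 CPM in N2 on 500 mM (1 and 0 counts), against 0.837 and 1.03 on 50 mM, a count ratio of 0.0195 (95% interval 0.000486 to 0.114). clec-49, needed for normal survival with Serratia marcescens, had 1.86 and 0.969 CPM in N2 on 500 mM, against 5.07 and 8.78 on 50 mM (log2 fold change -2.27 ± 0.33 SE, adjusted p = 0.000358). The other 4 on the list that fell were clec-65, clec-66, clec-70 and clec-71.

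Other immune gene families were read from the same fit, on lists chosen with earlier results of these data known. Over all genes tested in N2 on 500 over 50 mM, 32.1% fell and 31.4% rose (63.5% in either direction). No list was tested against these shares. In N2 on 500 over 50 mM, 8 of 11 galectin genes fell and 2 rose (median log2 -0.75), 6 of 13 lysozyme genes fell and 4 rose (median -0.77) and 10 of 20 caenopore genes fell and 5 rose (median -0.61). Of 18 genes for fungus-induced proteins that passed the level, 12 fell and 5 rose (median -1.77). The sum of the 36 listed nevertheless went up, to 2421 and 2269 CPM in N2 on 500 mM, against 646 and 738 on 50 mM. Of 9 DOD genes, named as downstream of the insulin-pathway factor DAF-16, 6 fell and 1 rose (median -2.87). The 19 caenacin and nlp peptide genes, epidermal antimicrobial peptides among them, went both ways, 9 rising and 7 falling (median 0.09). Of 18 immune regulators such as pmk-1 and tir-1, 7 rose and 5 fell (median 0.01). The 3 infection response genes all fell (median -3.25), and of 3 thaumatin genes that passed the level 2 rose and 1 fell (median 4.51), with the 6 thaumatins listed summing to 4.72 and 3.75 CPM in N2 on 500 mM, against 0.441 and 1.06 on 50 mM. Among these family medians, which run from -3.25 to 4.51, the C-type lectins stood at -1.59.

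lin-45 embryos on 500 against 50 mM ask whether the salt response holds without full RAF activity. Of the 108 members, 79 fell and 14 rose, against 34.9% and 33.4% of all genes tested (68.3% in either direction), and the median log2 fold change was -1.75 against -0.02 over all genes. These 4 libraries are not shared with the N2 comparison. In both strains 71 members fell and 10 rose, and 0 were called in opposite directions. Over all genes tested, 24.4% fell and 22.4% rose in both strains, and for members the shares were 65.7% and 9.26%. A further 8 members fell and 4 rose with a call in lin-45 alone, 7 fell with a call in N2 alone, and 8 had no call in either. Calls in a single strain do not show a difference between strains, which was tested as the interaction. Intestine markers summed to 3655 and 3628 CPM in lin-45 on 500 mM, against 8020 and 7573 on 50 mM, and 7 of the 10 fell and 1 rose. Neuron markers gave 4 falls and 1 rise of 8, epidermis markers 6 rises and 1 fall of 8 and maternal RNAs 8 rises of 12. Pharynx markers gave 3 rises and 1 fall of 7 and germ line markers 3 rises of 6. Body wall muscle markers gave 2 falls and 1 rise of 6, and markers of the excretory cell and glia 2 falls and 1 rise of 5. The part of these lists was not tested.

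Among members with at least 10 CPM on 50 mM, the deepest falls in lin-45 were those of clec-9, clec-70, clec-76, clec-198, clec-163 and clec-143. clec-76 had 0.254 and 0.304 CPM in lin-45 on 500 mM, against 27.9 and 31.7 on 50 mM (log2 fold change -6.72 ± 0.41 SE, adjusted p = 8.76e-07). clec-70, a neighbour of clec-76 in the cluster described further on, had 0 and 0.135 CPM in lin-45 on 500 mM (0 and 4 counts), against 14.7 and 10.6 on 50 mM (319 and 309 counts, adjusted p = 0.000134). clec-143 had 0.602 and 0.473 CPM in lin-45 on 500 mM, against 25.2 and 28.9 on 50 mM (log2 fold change -5.64 ± 0.28 SE, adjusted p = 6.56e-07). In all 3 genes the groups were apart by more than any spread within them. clec-198 had 0.127 and 0.101 CPM in lin-45 on 500 mM, against 11.7 and 9.58 on 50 mM (log2 fold change -6.48 ± 0.54 SE, adjusted p = 3.04e-06). clec-163 had 0.254 and 0.236 CPM in lin-45 on 500 mM, against 18.1 and 21.1 on 50 mM (log2 fold change -6.30 ± 0.46 SE, adjusted p = 2.51e-06). Of the members that rose, clec-78 stood at 9.41 and 9.76 CPM in lin-45 on 500 mM, against 0.323 and 0.893 on 50 mM (log2 fold change 3.90 ± 0.31 SE, adjusted p = 6.77e-06), and clec-180 at 48.7 and 49.9 CPM, against 11.8 and 26.6 (log2 fold change 1.35 ± 0.30 SE, adjusted p = 0.00357). clec-87, clec-88 and clec-91 also rose, by 2.84 ± 0.67, 3.00 ± 0.83 and 3.86 ± 0.99 on the log2 scale (adjusted p = 0.0059, 0.00995 and 0.00586), and the clec-88 call was lost without lin-45 50 mM replicate 1 (adjusted p = 0.0548).

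**Figure D3:**
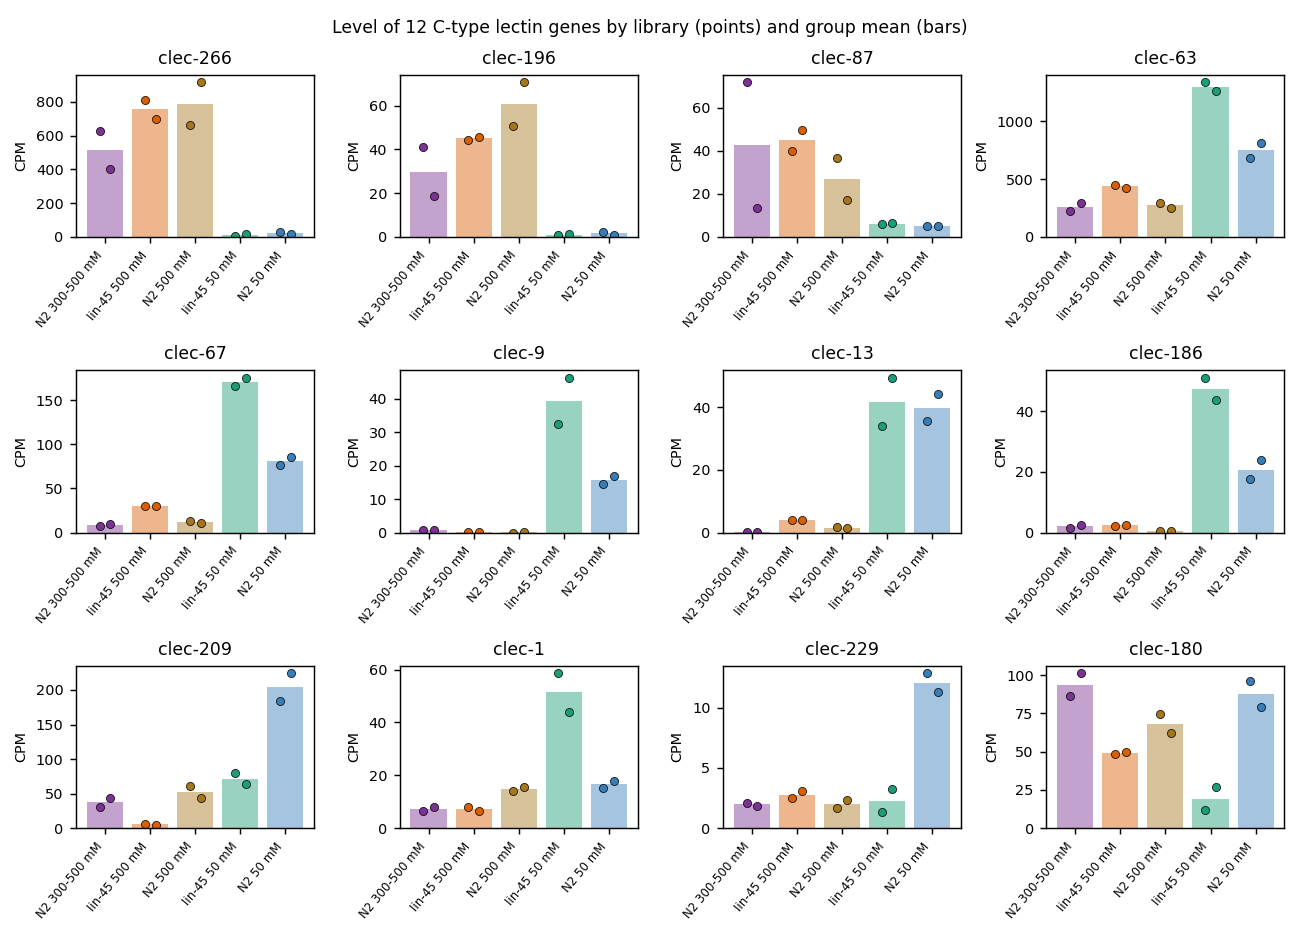
CPM (vertical, linear from 0, a scale for each panel) of 12 members in the 5 groups. Points are libraries and bars the mean of 2. clec-266 and clec-196 are high in the 3 groups on 500 mM, clec-63, clec-67, clec-9, clec-13 and clec-186 in the 2 on 50 mM, and clec-180 is lowest in lin-45 on 50 mM.

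Many members lie beside one another in the genome. Of the 108 members, 61 lay within 10000 bases of another, in 17 groups of neighbours. In N2 on 500 over 50 mM, 52 of the 61 fell, 1 rose and 8 did not pass, and of the 47 members outside such groups 26 fell, 9 rose and 12 did not pass. In lin-45 the numbers were 55 falling and 2 rising of 61, and 24 falling and 12 rising of 47. In 11 of the 17 groups every member fell in N2, in 0 every member rose, and 0 held calls of both directions. The other 6 held both called and uncalled members. Over all members 78 of 108 fell, and no link between position and response was tested. Neighbours of similar sequence can share reads, so they are not independent of each other.

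The largest group, of 10 members, spans 46.9 kb of chromosome IV from 3922158 to 3969019 on ce10 and holds, in order, clec-67, clec-69, clec-70, clec-71, clec-174, clec-72, clec-73, clec-74, clec-75 and clec-76. All 10 fell in lin-45 on 500 over 50 mM, and 9 fell in N2, with clec-69 not passing (-1.43 ± 0.83, adjusted p = 0.139). The depth of the fall differed greatly between neighbours. In N2, the log2 fold change was -1.56 ± 0.07 for clec-72 and -1.17 ± 0.18 for clec-75, while clec-71 gave -4.89 ± 0.55, clec-74 -4.76 ± 0.29 and clec-76 the count ratio given above. clec-72 had 42.4 and 39.7 CPM in N2 on 500 mM, against 118.9 and 124 on 50 mM (adjusted p = 1.08e-06). clec-75 had 10.3 and 8.47 CPM in N2 on 500 mM, against 20.3 and 21.9 on 50 mM (adjusted p = 0.000554). These 2 kept a sizeable level on high salt, whereas clec-70 had 0.0333 and 0 CPM in N2 on 500 mM (1 and 0 counts), against 0.705 and 2.47 on 50 mM, a count ratio of 0.0107 (95% interval 0.000268 to 0.0611). In preconditioned embryos clec-70 had no count, so it was at least 41.4-fold lower than in N2 on 50 mM, with a floor of 3 counts over the group.

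**Figure D4:**
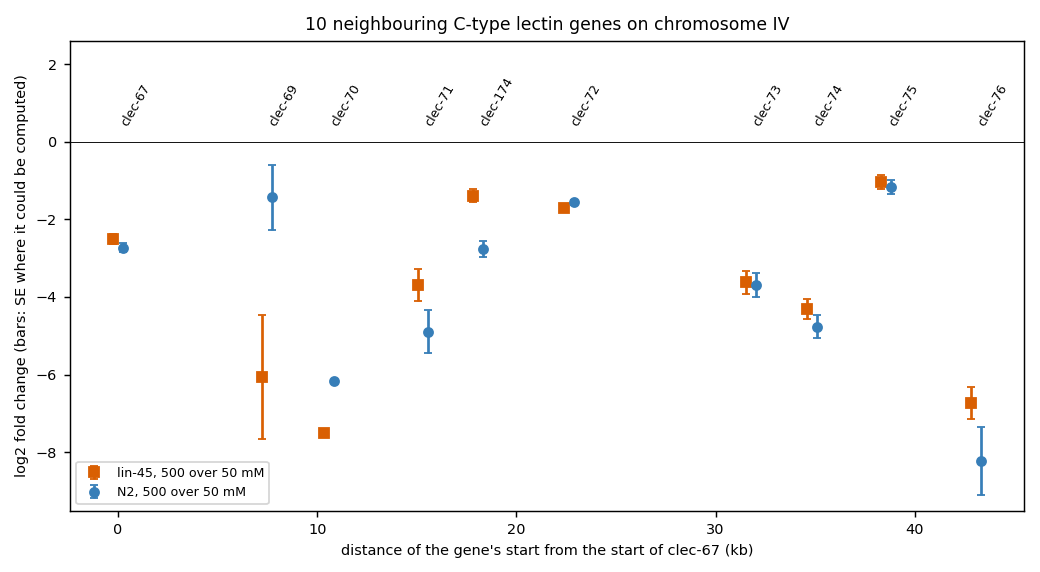
Log2 fold change on 500 over 50 mM NaCl (vertical) in lin-45 (squares) and N2 (circles) for the 10 neighbours on chromosome IV, by the distance of each gene's start from that of clec-67 in kb. Bars are SE, and none was computed for clec-70. All 20 points lie under 0; the shallowest is clec-75 in lin-45 at -1.04, and the deepest, those of clec-70, clec-76 and, in lin-45, clec-69, rest on few counts on 500 mM.

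Of the other groups, clec-62, clec-63, clec-64, clec-65 and clec-66 on chromosome II (12892994 to 12906538) all fell in both strains. Their log2 fold changes in N2 were -0.56 ± 0.14, -1.46 ± 0.14, -3.95 ± 0.39, -0.55 ± 0.15 and -1.22 ± 0.15, so the shallow falls of clec-62 and clec-65 stood beside a deep one in clec-64. The N2 call of clec-62 was lost without N2 500 mM replicate 2 (adjusted p = 0.0504) and that of clec-65 without N2 50 mM replicate 2 or N2 500 mM replicate 2 (adjusted p up to 0.0877). clec-80, clec-82, clec-83, clec-84 and clec-85 on chromosome IV (2823743 to 2855454) also fell in both strains, with log2 fold changes of -3.09, -2.20, -1.09, -1.52 and -1.33 in N2. The 8 neighbours on chromosome V from 16846844 to 16869823, clec-36, clec-26, clec-37, clec-35, clec-31, clec-24, clec-28 and clec-33, gave 6 falls in N2 and 7 in lin-45. Of the neighbours clec-229 and clec-230, both fell in N2 and neither passed in lin-45. clec-145 and clec-146, neighbours on chromosome II, were called in opposite directions in the mutant: in lin-45 clec-146 rose and clec-145 fell, though the call of clec-145 was lost in fits that left out 1 library (adjusted p up to 0.295). clec-145 overlaps Y48E1B.8 on the opposite strand, which gave -6.41 on the log2 scale in lin-45. The neighbours clec-225 and clec-41 on chromosome V were also called in opposite directions in lin-45, where clec-225 rose and clec-41 fell. Both calls held in every fit that left out 1 library.

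The mutant set against wild type on 50 mM asks what reduced RAF activity does without salt stress. Of the 108 members, 41 were higher in lin-45 and 16 lower, against 33.2% and 21.1% of all genes tested (54.3% in either direction), and the median log2 fold change was 0.31 against 0.16 over all genes. The highest of the 5 group means was in lin-45 on 50 mM for 65 members and in N2 on 50 mM for 23. Matching counts over all genes are not given, so these do not set the members apart from other genes. Leaving out N2 50 mM replicate 1 left 23 members higher, and leaving out lin-45 50 mM replicate 1 left 26 higher and 10 lower. Intestine markers summed to 8020 and 7573 CPM in lin-45 on 50 mM, against 5058 and 5564 in N2 on 50 mM, and 4 of the 10 were higher and none lower. Of 8 neuron markers 3 were lower and 1 higher, and of 5 markers of the excretory cell and glia 3 were lower and 1 higher. Pharynx markers gave 2 lower of 7, body wall muscle markers 2 higher of 6 and germ line markers 1 higher of 6. The part of these lists in the C-type lectin counts was not tested.

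Among members with at least 10 CPM in the mutant, clec-70, clec-82, clec-146, clec-1, clec-49 and clec-160 had the largest excess. clec-70 had 14.7 and 10.6 CPM in lin-45 on 50 mM, against 0.705 and 2.47 in N2 (adjusted p = 0.00366). clec-82 had 13.3 and 10.8 CPM in lin-45 on 50 mM, against 3.39 and 3.28 in N2 (log2 fold change 1.85 ± 0.29 SE, adjusted p = 0.00101). clec-1 (chromosome V at 5699993 to 5701066) had 58.6 and 44.1 CPM in lin-45 on 50 mM, against 15.3 and 17.9 in N2 (log2 fold change 1.62 ± 0.17 SE, adjusted p = 0.000196). That the libraries of the 2 strains did not overlap was a condition for naming these members. clec-49 had 20.1 and 19.4 CPM in lin-45 on 50 mM, against 5.07 and 8.78 in N2 (log2 fold change 1.50 ± 0.28 SE, adjusted p = 0.00234). clec-160 had 20.6 and 18.5 CPM in lin-45 on 50 mM, against 6.74 and 7.72 in N2 (log2 fold change 1.43 ± 0.14 SE, adjusted p = 0.000142). clec-67 and clec-85, the PMK-1 targets of infected adults, were higher too, by 1.07 ± 0.12 and 0.99 ± 0.09 on the log2 scale (adjusted p = 0.000204 and 0.000128). clec-42 was higher by 0.74 ± 0.12 (adjusted p = 0.00117), whereas clec-41 gave 0.06 ± 0.10 (adjusted p = 0.641). clec-63 was higher by 0.79 ± 0.14 (adjusted p = 0.00156).

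Lowest in the mutant on 50 mM, among members with at least 10 CPM in N2, were clec-229, clec-230, clec-180, clec-225, clec-209 and clec-12. clec-229 (chromosome V at 15340259 to 15341429) had 1.29 and 3.23 CPM in lin-45 on 50 mM, against 12.9 and 11.3 in N2 (log2 fold change -2.39 ± 0.35 SE, adjusted p = 0.000713). Its neighbour clec-230 had 7.57 and 20.2 CPM in lin-45, against 75.1 and 64.7 in N2 (log2 fold change -2.31 ± 0.34 SE, adjusted p = 0.000843). clec-180 (chromosome IV at 7568890 to 7573767) had 11.8 and 26.6 CPM in lin-45, against 96.3 and 78.9 in N2 (log2 fold change -2.17 ± 0.30 SE, adjusted p = 0.000531). In all 3 genes lin-45 replicate 1 was far under replicate 2, and both lay under N2. clec-225 had 7.76 and 10.6 CPM in lin-45, against 38.5 and 30.6 in N2 (log2 fold change -1.90 ± 0.17 SE, adjusted p = 0.000114). clec-209 had 79.2 and 63.9 CPM in lin-45, against 184 and 224 in N2 (log2 fold change -1.51 ± 0.21 SE, adjusted p = 0.000545). clec-12 had 5.63 and 6.94 CPM in lin-45, against 14.9 and 13.2 in N2 (log2 fold change -1.15 ± 0.14 SE, adjusted p = 0.000345). Epidermis markers, 8 of 9 passing the level, were low in the same libraries: 5 were lower and none higher, and the 9 summed to 925 and 1657 CPM in lin-45 on 50 mM, against 6286 and 5054 in N2 on 50 mM. On 500 mM they summed to 4150 and 4285 CPM in lin-45, against 5638 and 5189 in N2. sqt-3, a collagen gene on this list, stood at 388 and 1047 CPM in lin-45 on 50 mM, against 5172 and 4030 in N2. It made up most of the N2 sums, so the difference in the sums is largely that of sqt-3. In lin-45 on 50 mM replicate 1 was again the lower. The part of the epidermis list in the lower C-type lectins was not tested.

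On 500 mM the strains were closer. Of the 108 members, 14 were higher in lin-45 and 4 lower, against 4.84% and 1.65% of all genes tested, and the median log2 fold change was 0.17 against 0.00 over all genes. Of 6 germ line markers 2 were higher and none lower, and of 5 markers of the excretory cell and glia 2 were lower and none higher. Intestine markers gave 1 higher of 10, pharynx markers 1 higher of 7 and neuron markers 1 lower of 8. The part of these lists was not tested. The count of higher members was 6, 5, 6 and 7 without N2 500 mM replicates 1 and 2 and lin-45 500 mM replicates 1 and 2 in turn. That of lower members was 1, 1, 1 and 2 without the same libraries, and 7 without either preconditioned library. Only clec-67, clec-85, clec-41, clec-174, clec-186 and clec-209 kept their calls in all 10 fits that left out a library. The other 12 called members were clec-5, clec-13, clec-15, clec-62, clec-63, clec-65, clec-66, clec-149 and clec-194 among the higher and clec-1, clec-26 and clec-225 among the lower.

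clec-209 (chromosome V at 2351650 to 2352931) stood apart in size. It had 30.4 and 43.8 CPM in preconditioned embryos, 5.58 and 4.93 in lin-45 on 500 mM, 60.7 and 43.5 in N2 on 500 mM, 79.2 and 63.9 in lin-45 on 50 mM and 184 and 224 in N2 on 50 mM. The lin-45 libraries on 500 mM were the lowest by a wide margin, and in N2 the gene also fell with salt. The strain difference on 500 mM was -3.31 ± 0.24 on the log2 scale (SE, adjusted p = 0.000171), and the N2 fall was -1.97 ± 0.21 (adjusted p = 7.94e-05). clec-67 had 30.1 and 29.9 CPM in lin-45 on 500 mM, against 13.2 and 11.2 in N2 (log2 fold change 1.30 ± 0.13 SE, adjusted p = 0.000716). clec-85 had 28.1 and 27.3 CPM in lin-45, against 16.9 and 16.3 in N2 (log2 fold change 0.74 ± 0.10 SE, adjusted p = 0.0034). clec-41 had 23.2 and 25.8 CPM in lin-45, against 12.6 and 12.1 in N2 (log2 fold change 0.98 ± 0.11 SE, adjusted p = 0.00142). These 3 immunity-linked members were therefore higher in the mutant on high salt. Of the 15 members listed for a known role, 5 were higher in lin-45 on 500 mM, 1 was lower and 9 did not pass. In either direction 40% of the 15 were called, against 16.7% of the 108 members and 6.49% of all genes tested. clec-174 had 4.72 and 4.80 CPM in lin-45, against 1.16 and 1.26 in N2 (log2 fold change 1.97 ± 0.21 SE, adjusted p = 0.00106). clec-186 had 2.25 and 2.63 CPM in lin-45, against 0.466 and 0.337 in N2 (log2 fold change 2.57 ± 0.38 SE, adjusted p = 0.0037).

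The interaction, which takes the log2 salt effect of N2 away from that of lin-45, passed for 31 members, 15 with a higher value in lin-45 and 16 with a lower one, against 12.2% and 14.3% of all genes tested. In either direction, 28.7% of members and 26.4% of all genes passed, so the members' share was near that of all genes. The median was -0.01 over the members and -0.06 over all genes. Epidermis markers gave 4 higher of 8 and pharynx markers 3 of 7, with none lower. Neuron markers gave 1 higher of 8, markers of the excretory cell and glia 1 higher of 5 and intestine markers 1 lower of 10. The part of these lists was not tested. The counts rest on single libraries: without N2 50 mM replicate 1 they were 5 higher and 4 lower, and without N2 50 mM replicate 2 they were 9 and 9. The lower count was 6 without lin-45 50 mM replicate 1, 6 and 7 without N2 500 mM replicates 1 and 2, and 5 and 7 without lin-45 500 mM replicates 1 and 2. The higher count was 7 without N2 500 mM replicate 2 and 8 without lin-45 500 mM replicate 1. Only 8 members kept the call in all 10 such fits: clec-1, clec-5, clec-41, clec-78, clec-160, clec-209, clec-229 and clec-258.

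clec-1 fell with salt in the mutant (8.11 and 6.55 CPM in lin-45 on 500 mM, against 58.6 and 44.1 on 50 mM) and gave 14.1 and 15.6 CPM in N2 on 500 mM, against 15.3 and 17.9 on 50 mM. The lin-45 effect was -2.80 ± 0.18 on the log2 scale (adjusted p = 3.81e-06), the N2 effect -0.17 ± 0.18 (adjusted p = 0.432) and the difference -2.64 ± 0.25 (adjusted p = 0.00217). clec-1 was thus high in the 2 lin-45 libraries on 50 mM, with the other 8 libraries at 6.49 to 17.9 CPM. clec-229 went the other way, with 2.47 and 3.04 CPM in lin-45 on 500 mM, against 1.29 and 3.23 on 50 mM, and 1.66 and 2.32 CPM in N2 on 500 mM, against 12.9 and 11.3 on 50 mM (difference 2.86 ± 0.51, adjusted p = 0.00901). Its N2 libraries on 50 mM lay far above the other 8. clec-78 differed by 2.42 ± 0.38 (adjusted p = 0.00683) and clec-258 by 1.83 ± 0.35 (adjusted p = 0.0102), both with low levels in lin-45 on 50 mM. clec-258 had 2.31 and 1.93 CPM in lin-45 on 500 mM, against 0.415 and 0.344 on 50 mM. clec-160, with -1.37 ± 0.20 (adjusted p = 0.00644), fell more deeply in lin-45. clec-41, with 0.92 ± 0.15 (adjusted p = 0.00779), and clec-5, with 1.20 ± 0.23 (adjusted p = 0.0102), fell less deeply in lin-45.

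**Figure D5:**
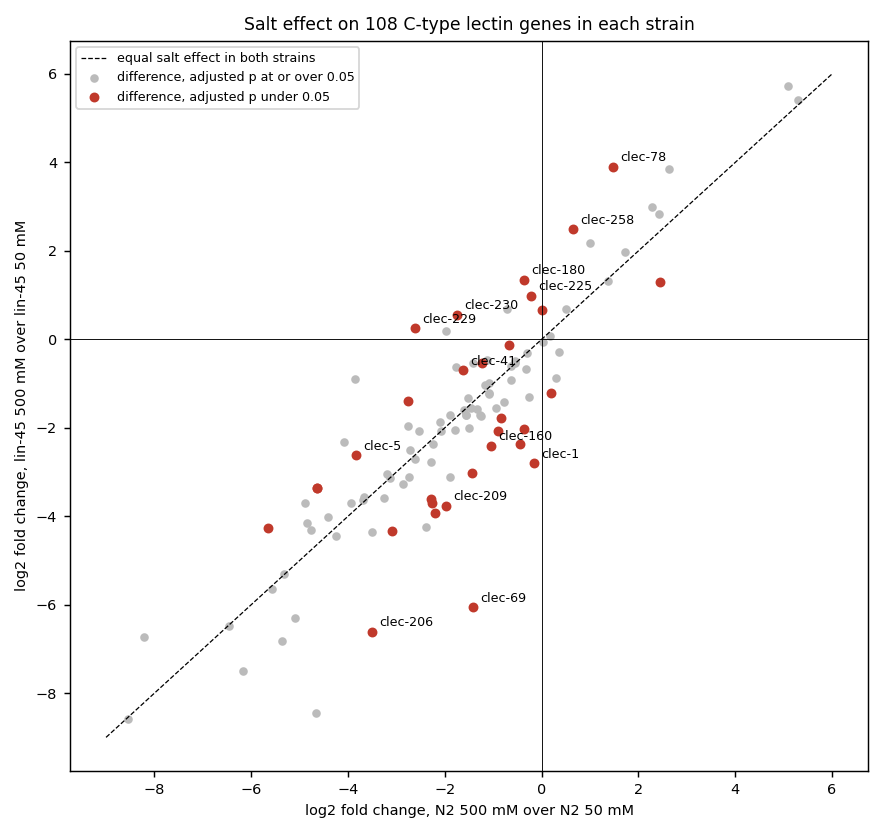
Log2 fold change on 500 over 50 mM NaCl in lin-45 (vertical) against N2 (horizontal) for the 108 members, with the line of equal effects dashed. Red points mark the 31 members whose effects differed past the threshold. clec-229 and clec-78 lie above the line and clec-1, clec-209 and clec-69 under it.

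Preconditioned embryos against other N2 embryos on 500 mM ask what the parents' salt changes. Of the 108 members, 13 were higher and 10 lower, against 10.2% and 12% of all genes tested (22.2% in either direction), and the median log2 fold change was 0.05 over the members and 0.05 over all genes. The share of members called was thus near that of all genes. Epidermis markers gave 3 higher of 8, germ line markers 3 of 6 and neuron markers 2 of 8, with none lower. Intestine markers gave 3 higher and 2 lower of 10 and body wall muscle markers 2 lower of 6. Maternal RNAs gave 1 higher of 12 and pharynx markers 1 lower of 7. The part of these lists was not tested. The count of higher members was 6 and 5 without N2 500 mM replicates 1 and 2 and 8 without either N2 50 mM library, and the count of lower ones was 6 without N2 500 mM replicate 1 and 17 without preconditioned replicate 2. Calls that held in all 10 fits that left out a library were those of clec-4, clec-9, clec-50 and clec-186 among the higher and clec-1, clec-13, clec-15, clec-72 and clec-146 among the lower.

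clec-9 had 0.802 and 0.761 CPM in preconditioned embryos (30 and 26 counts), against 0 and 0.0843 CPM in N2 on 500 mM (0 and 2 counts), a count ratio of 21.0 (95% interval 5.56 to 178). clec-186 had 1.60 and 2.40 CPM in preconditioned embryos, against 0.466 and 0.337 in N2 on 500 mM (log2 fold change 2.28 ± 0.38 SE, adjusted p = 0.00282). clec-50 had 48.8 and 63.1 CPM in preconditioned embryos, against 31.9 and 26.3 in N2 on 500 mM (log2 fold change 0.94 ± 0.14 SE, adjusted p = 0.00231). All 3 stayed under their level in N2 on 50 mM, 14.4 and 16.8, 17.5 and 23.9 and 173 and 183 CPM. clec-4 had 2.65 and 3.63 CPM in preconditioned embryos, against 1.40 and 1.43 in N2 on 500 mM (log2 fold change 1.14 ± 0.19 SE, adjusted p = 0.00397). clec-72 had 26.6 and 28.6 CPM in preconditioned embryos, against 42.4 and 39.7 in N2 on 500 mM (log2 fold change -0.57 ± 0.07 SE, adjusted p = 0.00142). clec-1 had 6.49 and 7.94 CPM in preconditioned embryos, against 14.1 and 15.6 in N2 on 500 mM (log2 fold change -1.04 ± 0.18 SE, adjusted p = 0.00534). The groups did not overlap for any of these 6, which was a condition for naming clec-50, clec-72 and clec-1. clec-41 was higher by 0.56 ± 0.11 (adjusted p = 0.00808), a call lost without N2 500 mM replicate 2 (adjusted p = 0.0586). clec-266 gave -0.62 ± 0.37 (adjusted p = 0.259), clec-196 -1.02 ± 0.34 (adjusted p = 0.0639) and clec-63 -0.06 ± 0.14 (adjusted p = 0.772), none of which passed.

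Preconditioned embryos against N2 on 50 mM, which share the 50 mM libraries with the N2 salt comparison, gave 78 lower and 10 higher members, against 27.9% and 30.4% of all genes tested, with a median log2 fold change of -1.43 against 0.04 over all genes. Without N2 50 mM replicate 2, or without preconditioned replicate 1, 6 members were higher. Of 10 intestine markers 5 were lower and 2 higher, and of 8 neuron markers 5 were lower and 1 higher. Of 6 body wall muscle markers 4 were lower and none higher, and of 7 pharynx markers 4 were lower and 3 higher. Markers of the excretory cell and glia gave 2 lower and 2 higher of 5. All 12 maternal RNAs were higher (median log2 1.93), as were 7 of 8 epidermis markers and 5 of 6 germ line markers, with none lower in these 3 lists. The part of these lists in the counts of the C-type lectins was not tested. clec-266 rose by 4.48 ± 0.38 (adjusted p = 5.72e-05) and clec-196 by 4.26 ± 0.46 (adjusted p = 9.75e-05). clec-5 had 2.65 and 3.87 CPM in preconditioned embryos, against 64.2 and 67.5 in N2 on 50 mM (log2 fold change -4.34 ± 0.17 SE, adjusted p = 8.06e-07). clec-143 had 0.107 and 0.264 CPM in preconditioned embryos, against 15.2 and 13.3 in N2 on 50 mM (log2 fold change -6.26 ± 0.38 SE, adjusted p = 1.79e-06). clec-74 had 1.12 and 0.791 CPM in preconditioned embryos, against 42.4 and 52.6 in N2 on 50 mM (log2 fold change -5.62 ± 0.31 SE, adjusted p = 3.09e-06). All of these lay on the same side of N2 on 50 mM as N2 embryos on 500 mM did.

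Some members cannot be read on their own. Besides the pair with identical counts, 17 of the 108 overlap a gene on the opposite strand, among them clec-178 within the region of skn-1 and clec-264 beside fkb-6, and only 33 had whole counts in all 10 libraries. clec-178 had 6.32 and 5.14 CPM in N2 on 500 mM, against 5.55 and 4.69 on 50 mM, and did not pass (adjusted p = 0.438), while skn-1 averaged 177 CPM on 500 mM, against 294 on 50 mM. clec-264 had 19.5 and 16.9 CPM in N2 on 500 mM, against 18.2 and 17.5 on 50 mM (adjusted p = 0.86). clec-80 overlaps clec-81 on the same strand, and its counts were not whole in any of the 10 libraries. clec-51 fell in both strains, as did faah-1 opposite it (-1.14 in N2 and -1.05 in lin-45, log2). clec-205 fell in N2, whereas dhs-13 opposite it gave 1.66. alh-10, opposite clec-86, gave -0.58 in N2 and -1.30 in lin-45.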

How the data were processed

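RNA-seq of 10 embryo libraries was analysed from the authors' table. Per the submitters' processing notes, BWA 0.6.1, RSEM 1.2.15, bedtools 2.25.0 and DESeq 1.10.1 and the build ce10 were used. The tools' order, the annotation version and strandedness were not given in the sources used here. Expected counts from RSEM, not normalized, were deposited by the authors, with FPKM scaled by transcript length and depth. The deposited log2 values equal log2(FPKM + 1) and were not used further.

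Expected counts were rounded and tested with edgeR 4.0.16 (R 4.3.3): genes with at least 1 CPM in 2 libraries (14802 genes), TMM scaling (factors 0.923 to 1.08), and a quasi-likelihood model of 5 group means, 5 residual degrees of freedom and a pooled coefficient of variation of 13.1%. The 7 comparisons used two-sided F tests with Benjamini-Hochberg adjustment over all tested genes and a threshold of 0.05. An exact permutation test of 2 against 2 libraries cannot go below p = 0.333. CPM values are TMM-scaled, and errors of fold changes are SE with n = 2 libraries per group. Counts were simulated for N2 500 mM against N2 50 mM over 14802 genes. Of 2-fold changes 97% were recovered and of 4-fold changes 100%, and 1.5% of calls were false. Only 200 genes were changed there, all with a mean of at least 5 CPM, and the spread followed the mean level alone. In the data 63.5% of genes were called in this comparison, and the median member had a mean of 5.72 CPM. The simulated rates therefore do not carry over to the members.

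With 1 to 3 counts in a group, the ratio of summed counts is given with an exact 95% interval, and with none a bound from 3 counts over the group. Intervals and bounds cover counting error only.

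The members and lists were chosen with earlier results of these data known. Named members are, per comparison, the 6 highest and 6 lowest called folds that have at least 10 CPM in one group and no overlap between groups, the 8 highest mean FPKM, those with identical counts, those with a known role, neighbours within 10000 bases, and those past the interaction threshold. Alternatives were other scalings, DESeq2, no filter, a 5 CPM filter, a replicate block and leaving out each library.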

Additional observations from a re-analysis of the deposited data

Results flagged for a closer look

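For 31 members the test of the difference between strains passed, that is, the lin-45 salt effect less the N2 salt effect, on the log2 scale, had an adjusted p under 0.05 (edgeR quasi-likelihood test over all 14802 genes). These were 28.7% of the members, near the 26.4% of all genes tested that passed. A positive difference means a higher value, or a shallower fall, in lin-45. No explanation was tested for any of them.

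Positive differences were found for clec-229 (2.86), clec-78 (2.42), clec-230 (2.31), clec-258 (1.83), clec-180 (1.70), clec-186 (1.38), clec-174 (1.37), clec-225 (1.20), clec-5 (1.20), clec-41 (0.92), clec-66 (0.69), clec-12 (0.66) and clec-17 (0.54). The indistinguishable pair clec-13 and clec-15 gave 1.28 each. Members among these that were lower in lin-45 than in N2 on 50 mM included clec-229, clec-78, clec-230, clec-258, clec-180, clec-225 and clec-12. clec-5 and clec-17 were lower as well, with means of 56.8 and 135 CPM in lin-45, against 65.9 and 162 in N2.

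Negative differences were found for clec-69 (-4.63), clec-206 (-3.10), clec-1 (-2.64), clec-167 (-1.93), clec-209 (-1.80), clec-82 (-1.73), clec-48 (-1.65), clec-169 (-1.58), clec-49 (-1.43), clec-86 (-1.41), clec-160 (-1.37), clec-26 (-1.33), clec-80 (-1.25), clec-166 (-1.17), clec-146 (-1.14) and clec-53 (-0.93). clec-69 and clec-206 rest on 1 and 3 summed counts in lin-45 on 500 mM. With 2 libraries per group no library could be tested as standing apart from its group.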

How the results depend on the processing

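No called member changed sign under any alternative run. Counts of higher and lower members stayed within 1.5 times the reported ones under 2 other scalings, no filter, DESeq2, a 5 CPM filter and the replicate block, with 4 exceptions. The 5 CPM filter, which tests fewer genes, gave 10 members lower in lin-45 than in N2 on 50 mM, and the replicate block gave 2 lower on 500 mM. Preconditioned over N2 on 500 mM gave 8 higher members with DESeq2 and 8 with the replicate block. The labels do not say whether same-numbered libraries were prepared together. Same-numbered libraries of 2 groups deviated from their means with correlations of -0.297 to 0.125. With 2 libraries per group these values cannot decide whether the samples are paired. With the replicate block the N2 salt comparison gave 11 higher and 78 lower members, and the cause of the changed counts was not tested.

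Leaving out 1 library at a time, higher and lower counts ranged over 5 to 11 and 72 to 80 (N2 salt), 12 to 18 and 71 to 81 (lin-45 salt), 23 to 48 and 10 to 22 (lin-45 over N2, 50 mM), 5 to 20 and 1 to 7 (lin-45 over N2, 500 mM), 5 to 13 and 6 to 17 (preconditioned over N2 500 mM), 6 to 9 and 71 to 81 (preconditioned over N2 50 mM) and 5 to 20 and 4 to 18 (interaction). Where a group was left with 1 library, it was assumed to vary like the others. The calls kept in all 10 such fits were 77 of 88, 83 of 93, 31 of 57, 6 of 18, 9 of 23, 75 of 88 and 8 of 31 in the same order.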
